A study of Arabidopsis thaliana with 2 samples.

Results

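The genes described here are 42 Arabidopsis thaliana loci of DNA break signalling, recombination, end joining, mismatch repair and DNA synthesis, out of 27444 nuclear protein-coding genes in the RefSeq gene table. They were given as a list of loci, drawn up with earlier results of these data known. A differentially methylated region was counted at a gene when it shared at least 1 bp with the gene's span or with the 1 kb on either side. In this way 365 of the 83934 regions in the authors' 6 deposited lists fell to these genes. The gene table gives a symbol to 38 of the loci, and the other 4 (AT4G32700, AT4G14970, AT1G79950 and AT5G63960) are called by their locus here.

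The regions come from whole-genome bisulfite sequencing of seedlings grown in vitro for 10 days, which reads methylation as the share of reads in which a cytosine stayed unconverted. The lines compared with Col wild type were ddb2-3, which carries the insertion DsLoxHs195_05H and is mutated in DDB2, a damage sensor of global genome repair, and a line called cen, whose genotype the labels used here do not give. There was 1 library of ddb2-3 and 1 of Col, the cen library is not described, and ddb2-3 is 1 insertion line. Whole seedlings were used, so a changed level and a changed mix of cell types cannot be told apart. Each deposited row gives a position on a 100 bp grid and a methylation difference (column 6), and leaves out read numbers and any error. The depth behind each region is therefore unknown and the lines could not be tested over plants. Shares carry 95% Wilson intervals, which hold counting error alone and treat neighbouring regions as independent. The deposited sign was read as Col minus the line, an inference from the data. A positive deposited value is thus given as lower in the line and a negative one as higher, and a wrong reading would exchange every gain and loss below. Both comparisons use the same Col library, so their values stand side by side and are not independent. Where a region has the same value in both lines, the reading of direction rests on it, so its sign is not a result.

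Double-strand breaks are sensed by the MRE11, RAD50 and NBS1 proteins and by the KU70 and KU80 dimer, signalled by the kinases ATM and ATR, and mended by recombination on an intact copy or by direct end joining. Mismatch repair uses MutS-type proteins (MSH) to find mispaired bases and MutL-type proteins (MLH and PMS1) to direct their removal, and translesion polymerases copy past damaged bases that stop the replicative polymerases. In Arabidopsis, CG methylation lies both in transposons and in the bodies of many long, steadily expressed genes, while CHG and CHH methylation (H is any base but G) marks mainly transposons and repeats.

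At nearly all of the repair and polymerase genes, CG methylation in ddb2-3 was listed as changed somewhere in the gene or beside it, in both directions and mostly in single 100 bp windows. CG regions of ddb2-3 lay at 38 of 42 genes (90.5%), against 57.7% of all protein-coding genes. There were 163 of them, 73 higher and 90 lower in ddb2-3, or 55.2% lower (47.5 to 62.6), beside 53.8% over all protein-coding genes. The median absolute difference was 0.289, beside 0.244 over all protein-coding genes, and 87.1% were a single window, beside 82.0%. Among protein-coding genes of at least the members' median length, the median was 0.273, 84.5% were a single window and 53.9% were lower. Regions of both directions lay at 26 genes, against 24.2% of all protein-coding genes. A higher region lay at 32 members, against 39% of all protein-coding genes, and a lower one at 32, against 43%. These shares by direction are not matched for gene length, so they do not set the members apart. Higher regions alone lay at 6 members, among them RAD51C (in the neighbouring gene GCP1), BRCA2(IV), MSH7, PMS1 and PARP2, and lower regions alone at 6, among them BRCA1, ATLIG4, POLH, RECQ4A and AT4G14970. The share of all protein-coding genes with higher or lower regions alone was not computed, so these counts do not set the members apart. No CG region of ddb2-3 was listed at XRCC2, XRCC3, KU70 or ATXRCC1.

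In the cen line, 39 of the 42 genes (92.9%) had a CG region, against 60.1% of all protein-coding genes. The 183 regions were 91 higher and 92 lower, or 50.3% lower (43.1 to 57.4), beside 45.6% over all protein-coding genes. The median absolute difference was 0.279, beside 0.246. Among protein-coding genes of at least the members' median length, the median was 0.276 and 48.0% of regions were lower. Both directions were found at 33 genes, against 26% of all protein-coding genes. A higher region lay at 36 members, against 46%, and a lower one at 36, against 40.1%. These shares by direction are likewise not matched for gene length. Higher regions alone lay at 3 members, MSH7 and ATXRCC1 among them, and lower regions alone at RAD50, REV1 and POLH. Here too the share of all protein-coding genes with regions of a single direction was not computed. WEE1, XRCC2 and XRCC3 had no CG region of cen, so that XRCC2 and XRCC3, both recombination genes, were without a region of any context in either comparison.

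**Figure D1:**
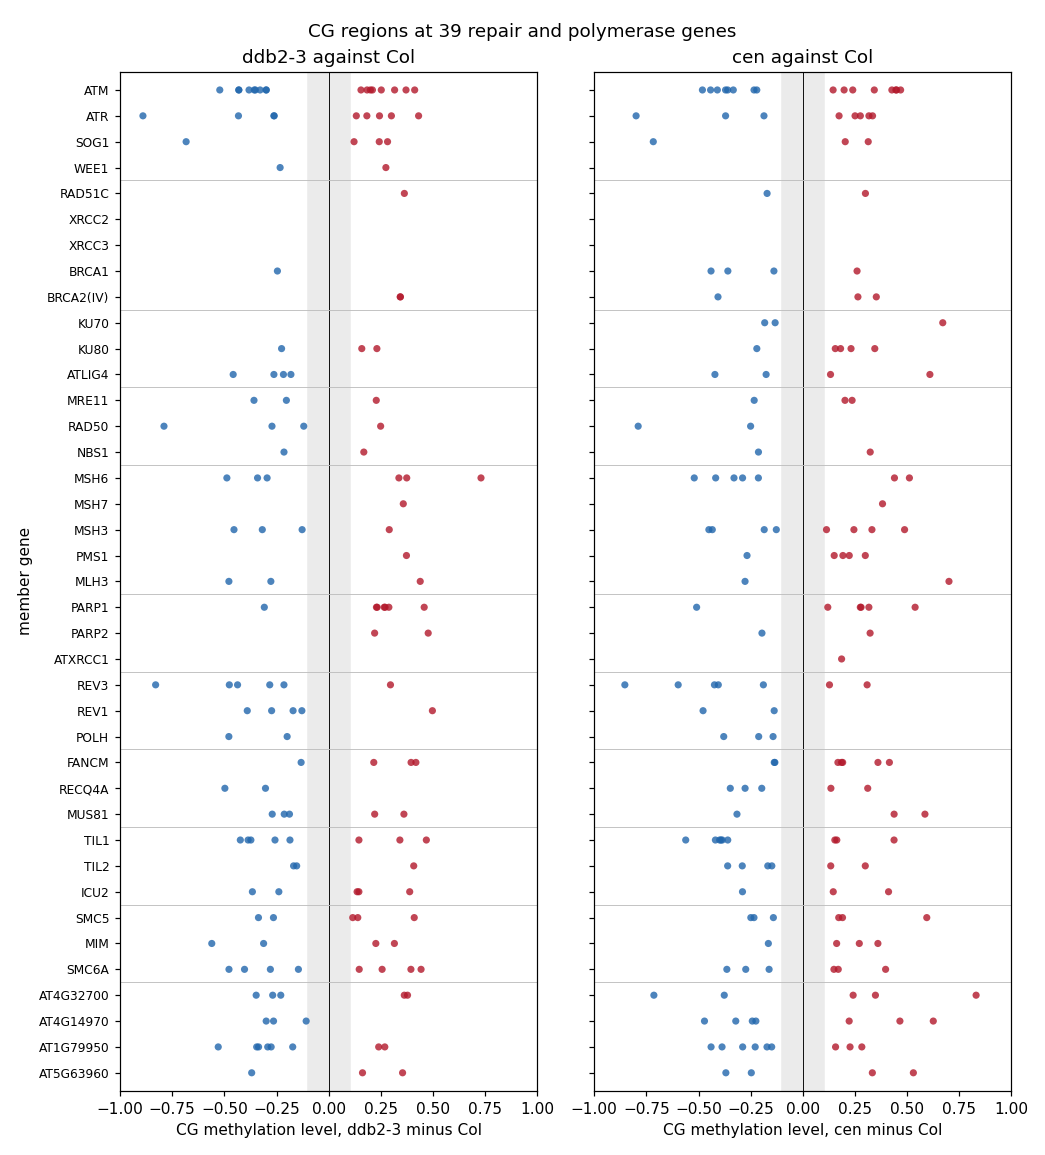
CG regions at 39 of the genes, with the methylation level of ddb2-3 minus Col on the left and of cen minus Col on the right, 1 point per region, red for higher and blue for lower than Col. The grey band spans -0.1 to 0.1, where no region is listed, and lines part the role groups. Points lie on both sides of 0 at 25 of these genes in ddb2-3 and 31 in cen, and the point farthest from 0 in ddb2-3 is the loss of 0.890 at ATR.

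These genes are long, and the number of regions followed gene length. Their median length was 6.01 kb, beside 2.08 kb for all protein-coding genes. Of protein-coding genes within the members' range of length, 72% had a CG region of ddb2-3 and 74.2% one of cen. Of the 871 protein-coding genes of at least the members' median length, 96.7% had a CG region of ddb2-3 and 97.9% one of cen, and so did 21 of the 21 members of that length in both comparisons. At 5 or more CG regions, 14 members were counted in ddb2-3 and 18 in cen, against 4.42% and 5.25% of all protein-coding genes. Among members of at least the median length the counts were 10 of 21 in ddb2-3 and 12 of 21 in cen, against 49.1% and 55.5% of protein-coding genes of that length.

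Per kb of gene and flanks, members of 5 to 7 kb had 0.394 CG regions of ddb2-3, beside 0.410 in other genes of that length, and members of 7 to 9 kb had 0.460 beside 0.494. Members of 9 kb or more had 0.460 beside 0.471, and those of 3 to 5 kb had 0.432 beside 0.356. In cen the same classes, from short to long, had 0.516 beside 0.382 at 3 to 5 kb, 0.483 beside 0.450 at 5 to 7 kb, 0.526 beside 0.529 at 7 to 9 kb and 0.468 beside 0.516 at 9 kb or more. Over all lengths the members had 0.436 regions per kb in ddb2-3 and 0.490 in cen, beside 0.287 and 0.311 for all protein-coding genes. From 5 kb upwards in ddb2-3, and from 7 kb upwards in cen, the members' density was thus near or slightly below that of other genes of like length. The classes from 5 kb hold 7, 11 and 7 members, and no spread was computed. At 9 kb or more the members' mean count was higher, 7.57 beside 6.47 in ddb2-3 and 7.71 beside 7.09 in cen. These densities do not set the members apart.

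**Figure D2:**
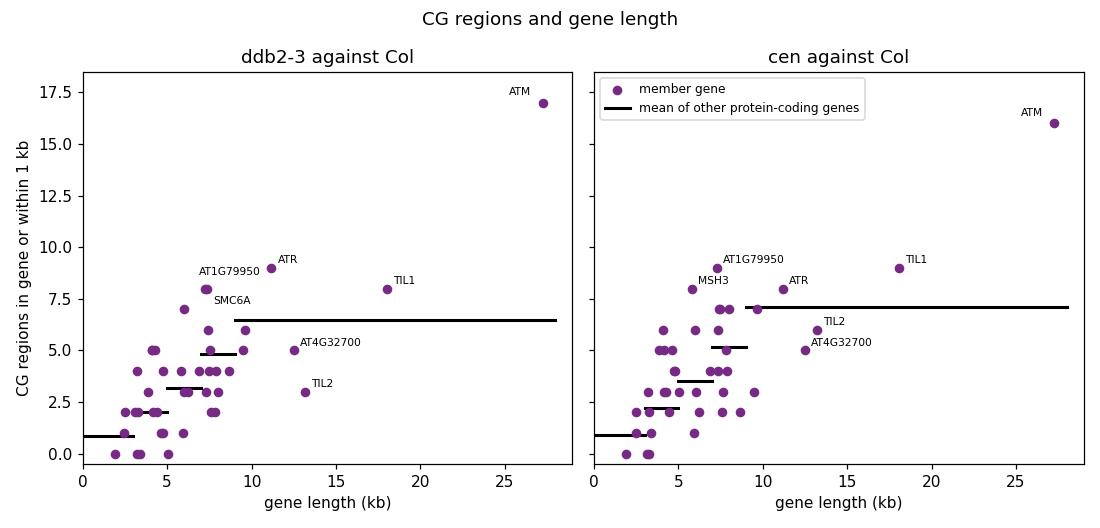
Number of CG regions in the gene or within 1 kb against gene length in kb, for ddb2-3 on the left and cen on the right, 1 point per member gene. Black bars are the means of other protein-coding genes in 5 length classes, 0.844 regions under 3 kb and 6.47 at 9 kb or more in ddb2-3, and ATM stands at 17 regions in ddb2-3 and 16 in cen.

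The 4 checkpoint genes had 32 CG regions of ddb2-3 (17 higher, 15 lower) and 27 of cen (15 higher, 12 lower), of which ATM held 17 in ddb2-3 and 16 in cen. ATM (AT3G48190), the kinase of the break response, is the longest member at 27.3 kb and had 17 CG regions of ddb2-3, 8 higher and 9 lower, or 0.581 per kb. Only 1 protein-coding gene had more. Along the chromosome, the authors' deposited table for ddb2-3 gives ATM as higher by 0.412, lower by 0.351, 0.329, 0.382, 0.357 and 0.431, higher by 0.252, lower by 0.431, higher by 0.210, 0.316 and 0.184, lower by 0.522 and 0.30, and higher by 0.20 and 0.155. Left of the midpoint of ATM there were thus 2 higher and 6 lower regions of ddb2-3, and right of it 5 higher and 2 lower, while in cen it was 3 higher and 4 lower on the left and 4 higher and 3 lower on the right. Only PARP1 was also split, with 3 higher and 1 lower on the left and 2 higher and 0 lower on the right in ddb2-3. No background of other long genes was computed for this split. In the flank of ATM, which lies in the neighbouring gene AT3G48195, a region of 500 bp was lower by 0.299 and a window nested within it was higher by 0.371, per the authors' deposited table. In cen, ATM had 16 CG regions, 8 higher by at most 0.469 and 8 lower by at most 0.481, per the authors' deposited table.

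ATR (AT5G40820), the kinase that answers stalled replication, had the widest CG loss of all the members in ddb2-3. On chromosome 5, 16344001 to 16344200 (TAIR10) within ATR was lower by 0.890 in ddb2-3 and lower by 0.799 in cen, per the authors' deposited tables, and in ddb2-3 the window next to it, 16343901 to 16344000, was higher by 0.133. ATR had 9 CG regions of ddb2-3 (5 higher, 4 lower) and 8 of cen (5 higher, 3 lower), or 0.683 and 0.607 per kb. SOG1 (AT1G25580), the NAC transcription factor that ATM and ATR act through, also had adjoining windows of opposite direction. Its window at chromosome 1, 8997301 to 8997400, was lower by 0.683 in ddb2-3 and 0.717 in cen, while the adjoining 8997201 to 8997300 was higher by 0.282 in ddb2-3 and 0.313 in cen, per the authors' deposited tables. Adjoining CG rows of 1 direction do not occur in the lists, so the opposite direction is not a result about ATR or SOG1. SOG1 had 4 CG regions of ddb2-3 in all and 3 of cen. WEE1 (AT1G02970), a kinase that holds back the cell cycle, had 1 region higher by 0.274 and 1 lower by 0.233 in ddb2-3, and none in cen, per the authors' deposited tables.

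**Figure D3:**
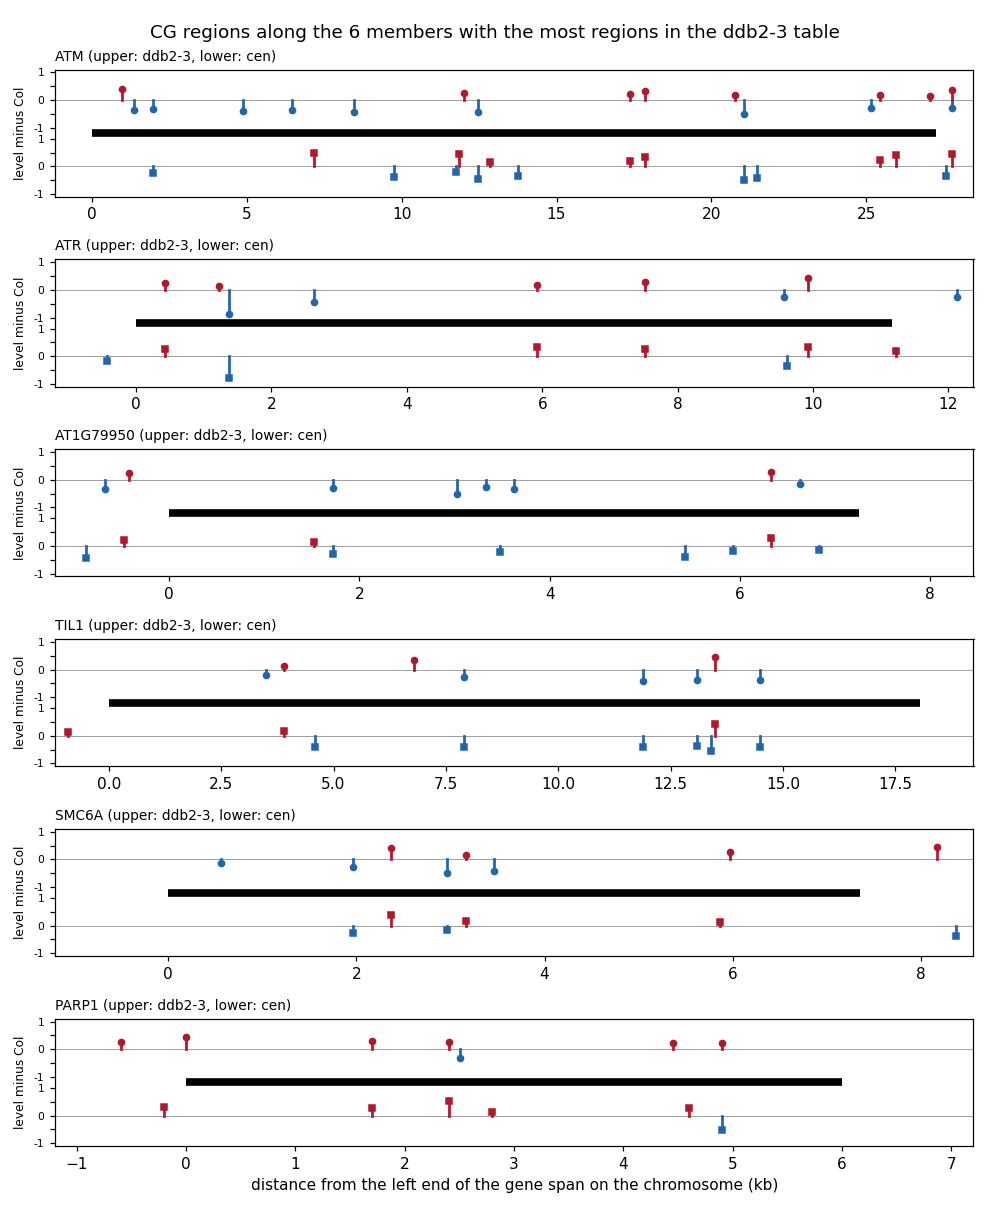
CG regions along the 6 members with the most regions in ddb2-3, with the distance from the left end of the gene span in kb on the x axis and the methylation level minus Col on the y axes. Circles above the black gene bar are ddb2-3 and squares below it are cen, red for higher and blue for lower than Col. At ATR the loss near the left end reaches 0.890 in ddb2-3 and 0.799 in cen.

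The recombination genes carried few CG regions. The 6 genes had 6 CG regions of ddb2-3 (5 higher, 1 lower), or 0.174 per kb, the lowest density of the 11 groups, and 10 of cen (5 higher, 5 lower), or 0.290 per kb. The groups were not matched for length, and these genes are 1.91 to 7.61 kb long. Other protein-coding genes had 0.230 per kb in ddb2-3 and 0.250 in cen under 3 kb, and 0.356 and 0.382 at 3 to 5 kb. BRCA2(IV) (AT4G00020), a mediator of strand exchange, had windows higher by 0.343 and 0.344 in ddb2-3, and in cen 2 higher by at most 0.352 and 1 lower by 0.407, per the authors' deposited tables. BRCA1 (AT4G21070) had a single window of ddb2-3, lower by 0.246, and 4 of cen, 1 higher by 0.260 and 3 lower by at most 0.440, per the authors' deposited tables. The smallest of these cen losses, 0.139, lies in the neighbouring gene AT4G21065, per the authors' deposited table. The only CG region of ddb2-3 at RAD51C lies outside it, in the neighbouring gene GCP1, and was higher by 0.363 in ddb2-3 and 0.30 in cen, per the authors' deposited tables. BRCA2(IV) has a close copy, BRCA2B on chromosome 5, and the sources used here do not say how reads matching both were placed, so its values are uncertain.

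Of the end-joining genes, ATLIG4 (AT5G57160), the ligase that seals the joined ends, had lower regions alone in ddb2-3. The authors' deposited table for ddb2-3 gives ATLIG4 as lower by 0.217, 0.263, 0.181 and 0.458, and that for cen gives it as higher by 0.133 and 0.609 and lower by 0.176 and 0.422. KU70 (AT1G16970) and KU80 (AT1G48050) encode the dimer that binds broken ends. KU80 had 3 CG regions of ddb2-3, higher by 0.231 and 0.159 and lower by 0.226, and 5 of cen, 4 higher by at most 0.345 and 1 lower by 0.221, per the authors' deposited tables. KU70 had none of ddb2-3, but in cen the authors' deposited table gives chromosome 1, 5801001 to 5801100, as higher by 0.671, with 2 other regions lower by at most 0.183. The smaller of these losses, 0.133, lies in the neighbouring gene AT1G16960, per the authors' deposited table.

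MRE11, RAD50 and NBS1, which form the complex that holds and trims broken ends, had 9 CG regions of ddb2-3 (3 higher, 6 lower) and 7 of cen (3 higher, 4 lower). RAD50 (AT2G31970) was listed at chromosome 2, 13607701 to 13607900, as lower by 0.789 in both ddb2-3 and cen, per the authors' deposited tables. The reading of direction rests on such equal values, so this sign is not a result, nor is the value a loss found independently in each line. The other ddb2-3 regions of RAD50 were higher by 0.249 and lower by 0.119 in the gene and lower by 0.272 in the flank, and cen had another lower by 0.250, per the authors' deposited tables. MRE11 (AT5G54260) had a region higher by 0.228 between windows lower by 0.203 and 0.358 in ddb2-3, and in cen regions higher by 0.202 and 0.236 and lower by 0.233, per the authors' deposited tables. CG rows as close as those of ddb2-3 here are always opposite in the lists. NBS1 (AT3G02680) had 1 higher and 1 lower region in both lines, gaining 0.168 in ddb2-3 and 0.323 in cen, and lower by 0.214 in ddb2-3 and 0.213 in cen, per the authors' deposited tables.

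All 7 mismatch repair genes had a CG region in both lines, with 24 in ddb2-3 (9 higher, 15 lower) and 32 in cen (16 higher, 16 lower). Of other protein-coding genes of 3 to 5, 5 to 7 and 7 to 9 kb, the lengths these genes span, 80.7%, 91.1% and 97.4% had one in ddb2-3 and 82.2%, 93.1% and 98.7% in cen. MSH6 (AT4G02070), a MutS-type protein that finds single mispaired bases, had the widest gain among the members in ddb2-3. Chromosome 4, 909501 to 909700, within MSH6 was higher by 0.730, per the authors' deposited table for ddb2-3, between windows lower by 0.341 and 0.295. Its other ddb2-3 regions were higher by 0.337 and 0.374 and lower by 0.488, per the authors' deposited table. In cen, both windows at the sides of that gain were lower, by 0.330 and 0.213, and the gain itself was not listed, per the authors' deposited table. MSH6 had 6 CG regions of ddb2-3 and 7 of cen. CG rows as close as the gain and the windows at its sides are always opposite in the lists, so that alternation is not a result.

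MSH3 (AT4G25540), a MutS-type protein that finds small loops, had 4 CG regions of ddb2-3, 1 higher by 0.290 and 3 lower by at most 0.454, and 8 of cen, 4 higher by at most 0.488 and 4 lower by at most 0.451, per the authors' deposited tables. At 1.02 per kb of gene and flanks in cen it was the densest member. Without flanks it had 1.21 per kb in cen, below KU80 at 1.29 and SMC5 at 1.22. The flank region of MSH3 lies in its neighbour FWA, an imprinted homeobox gene, and was lower by 0.318 in ddb2-3 and 0.185 in cen, per the authors' deposited tables. MSH7 (AT3G24495) had a single region, higher by 0.358 in ddb2-3 and 0.382 in cen, per the authors' deposited tables.

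PMS1 (AT4G02460) had 1 region of ddb2-3, higher by 0.373, and 5 of cen, 4 higher by at most 0.299 and 1 lower by 0.268, per the authors' deposited tables. MLH3 (AT4G35520), a MutL protein of meiotic crossing over, was higher by 0.439 and lower by 0.478 and 0.277 in ddb2-3, and in cen higher by 0.701, at chromosome 4, 16871501 to 16871600, and lower by 0.277, per the authors' deposited tables. The 0.277 is the same value at the same window in both lines, so its sign is not a result.

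The PARP genes, whose proteins mark breaks with poly(ADP-ribose), had mostly gains in the genes or beside them. PARP1 (AT2G31320 in the gene table, where older names exchange both PARP genes) had 7 CG regions of ddb2-3 and was the densest member there at 0.875 per kb of gene and flanks. Without flanks it had 0.9995 per kb, below SOG1 at 1.25 and MUS81 at 1.17. The authors' deposited table for ddb2-3 gives PARP1, in order along the chromosome, as higher by 0.271 in the neighbouring gene LBD14, and in PARP1 itself as higher by 0.458, 0.289 and 0.266, lower by 0.309, and higher by 0.233 and 0.229. In cen 4 regions in PARP1 were higher by at most 0.538 and 1 was lower by 0.509, and 1 in LBD14 was higher by 0.317, per the authors' deposited table. PARP2 (AT4G02390) had regions higher by 0.477 and 0.220 in ddb2-3, the first at chromosome 4, 1052601 to 1052700, and in cen 1 higher by 0.322 and 1 lower by 0.196, per the authors' deposited tables. ATXRCC1 (AT1G80420), a scaffold of single-strand break repair, had only a window of cen, higher by 0.186, per the authors' deposited table. Together these genes had 8 higher and 1 lower region in ddb2-3 and 7 higher and 2 lower in cen. In ddb2-3 11.1% were thus lower (1.99 to 43.5), beside 53.8% over all protein-coding genes. In cen it was 22.2% (6.32 to 54.7), an interval that holds the 45.6% over all protein-coding genes. PARP1 alone held 7 of the 9 regions of ddb2-3, and the group was singled out after the counts were seen.

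The translesion polymerases carried mostly losses. REV3, REV1 and POLH had 13 CG regions of ddb2-3, 2 higher and 11 lower, or 84.6% lower (57.8 to 95.7), and 12 of cen, 2 higher and 10 lower, or 83.3% lower (55.2 to 95.3). Over all protein-coding genes 53.8% were lower in ddb2-3 and 45.6% in cen. Regions within a gene share their source, and many of these windows were listed in both lines against the same Col library. The shares of the lines are therefore not independent. This group and the PARP genes were singled out after the counts of all 11 groups were seen. REV3 (AT1G67500), the catalytic subunit of polymerase zeta, was higher by 0.296 and lower by 0.214, 0.476, 0.437, 0.282 and 0.830, per the authors' deposited table for ddb2-3. The last of these, chromosome 1, 25295401 to 25295500, was also the widest loss of cen among the members, at 0.853, per the authors' deposited table. In cen REV3 was otherwise higher by 0.308 and 0.128 and lower by 0.189, 0.405, 0.598 and 0.424, per the authors' deposited table.

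REV1 (AT5G44750), a scaffold for translesion polymerases, had a gain of 0.497 in ddb2-3 at chromosome 5, 18054501 to 18054800, beside 4 lower regions of at most 0.390, and in cen 2 lower regions of at most 0.478, per the authors' deposited tables. In each line the smallest of these losses, 0.128 in ddb2-3 and 0.137 in cen, lies in the neighbouring gene AT5G44760, per the authors' deposited tables. POLH (AT5G44740), polymerase eta, which copies past ultraviolet dimers and lies beside REV1, had lower regions alone. They were lower by 0.478 and 0.199 in ddb2-3 and by 0.379, 0.143 and 0.212 in cen, per the authors' deposited tables.

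**Figure D4:**
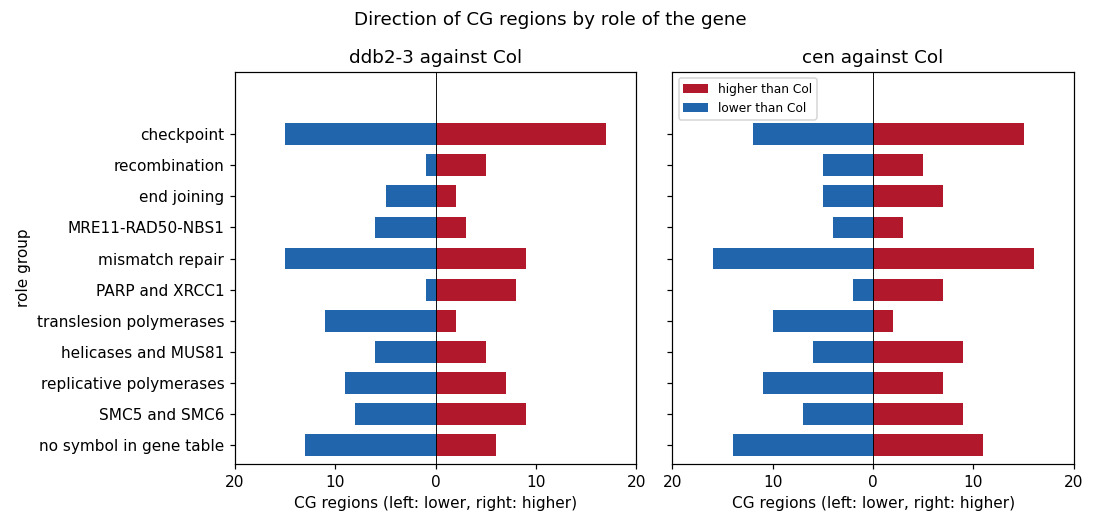
Number of CG regions by role group, lower than Col to the left in blue and higher than Col to the right in red, for ddb2-3 on the left and cen on the right. The translesion polymerases had 11 lower and 2 higher regions in ddb2-3, and the PARP genes with ATXRCC1 had 1 lower and 8 higher.

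Among the genes that process joint molecules, MUS81 (AT4G30870), a structure-specific nuclease, had 5 CG regions of ddb2-3, higher by 0.221 and 0.361 and lower by 0.213, 0.271 and 0.188, per the authors' deposited table. In cen MUS81 was higher by 0.438 and 0.585 and lower by 0.316, per the authors' deposited table. FANCM (AT1G35530), a helicase that limits crossovers, had 3 higher and 1 lower region in ddb2-3, with gains of at most 0.418, and 5 higher and 2 lower in cen, with gains of at most 0.415, per the authors' deposited tables. Its losses reached 0.132 in ddb2-3 and 0.137 in cen, per the authors' deposited tables. RECQ4A (AT1G10930), a helicase that takes joint molecules apart, had 2 lower windows of ddb2-3, by 0.498 and 0.303, and 3 lower and 2 higher in cen, per the authors' deposited tables. The wider of these cen gains, 0.311, lies in the neighbouring gene SNRK2.4, per the authors' deposited table.

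The replicative polymerase genes with a symbol in the gene table were TIL1, TIL2 and ICU2, and loci without a symbol were not placed in this group. In CG, the regions of these genes were single windows alone, and those of ddb2-3 all lay within the genes. At protein-coding genes of at least the members' median length, 84.5% of CG regions in ddb2-3 and 83.2% in cen were a single window. FANCM, RECQ4A and MUS81 also had single windows alone in ddb2-3, and the end-joining genes had all their ddb2-3 CG regions within the genes. TIL1 (AT1G08260), the main catalytic subunit of polymerase epsilon, had 8 CG regions over 18.0 kb in ddb2-3. In order they were lower by 0.186, higher by 0.145 and 0.341, lower by 0.257, 0.424 and 0.373, higher by 0.468 and lower by 0.386, per the authors' deposited table. In cen TIL1 had 9 CG regions, 3 higher by at most 0.437 and 6 lower by at most 0.562, per the authors' deposited table. TIL2 (AT2G27120), the second gene for that subunit, had 3 CG regions over 13.2 kb in ddb2-3, higher by 0.408 and lower by 0.168 and 0.153, and 6 in cen, 2 higher by at most 0.299 and 4 lower by at most 0.360, per the authors' deposited tables. Per kb TIL1 had 0.399 and TIL2 0.198 in ddb2-3, and 0.449 and 0.395 in cen. ICU2 (AT5G67100), the catalytic subunit of polymerase alpha, had 3 higher regions of at most 0.389 and 2 lower of at most 0.366 in ddb2-3, and 2 higher and 1 lower in cen, per the authors' deposited tables.

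SMC5, MIM and SMC6A, subunits of the SMC5/6 complex that holds sister chromatids during repair, had the highest density of the groups in ddb2-3, at 0.671 CG regions per kb, and 0.631 in cen. The groups were not matched for gene length. Other protein-coding genes had 0.356 in ddb2-3 and 0.382 in cen at 3 to 5 kb, and 0.494 and 0.529 at 7 to 9 kb. SMC6A (AT5G07660) had 8 regions of ddb2-3, in order lower by 0.145 and 0.279, higher by 0.394, lower by 0.478, higher by 0.146, lower by 0.403 and higher by 0.256 in the gene, and higher by 0.443 in the neighbouring gene AT5G07670, per the authors' deposited table. Directions thus alternated along most of SMC6A. In cen SMC6A was lower by 0.274, higher by 0.397, lower by 0.162, higher by 0.170 and 0.149 in the gene, and lower by 0.364 in AT5G07670, per the authors' deposited table. SMC5 (AT5G15920) had 5 CG regions of ddb2-3 and 6 of cen, with a gain of 0.410 in ddb2-3 and 0.594 in cen in the neighbouring gene AT5G15910, per the authors' deposited tables. MIM (AT5G61460), the other SMC6 gene, had 2 higher and 2 lower in ddb2-3, lower by at most 0.560, and 3 higher and 1 lower in cen, higher by at most 0.360, per the authors' deposited tables.

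The 4 loci without a symbol had 19 CG regions of ddb2-3 (6 higher, 13 lower) and 25 of cen (11 higher, 14 lower). AT1G79950 had 8 in ddb2-3, or 0.864 per kb, and 9 in cen, or 0.972 per kb. Along the chromosome AT1G79950 was lower by 0.336 and higher by 0.240 in the flank, lower by 0.292, 0.529, 0.276 and 0.345, higher by 0.269 and lower by 0.172, per the authors' deposited table for ddb2-3, both of the last also in the overlapping gene OFP14. AT4G14970 had 3 lower regions of ddb2-3, by at most 0.30, and in cen 3 higher by at most 0.625 and 4 lower by at most 0.472, per the authors' deposited tables. AT4G32700 had 5 CG regions in both lines. It held the widest gain of cen among the members, 0.831 at chromosome 4, 15778401 to 15778500, per the authors' deposited table, which the ddb2-3 table does not list. AT5G63960 was higher by at most 0.354 and lower by 0.369 in ddb2-3, and higher by at most 0.530 and lower by at most 0.369 in cen, per the authors' deposited tables. The 0.369 is the same value at the same window in both lines, so its sign is not a result.

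Outside CG, few regions lay at these genes, and all of those in CHH were gains. ddb2-3 had CHG regions at 3 of 42 members, against 5.04% of all protein-coding genes, and CHH regions at 6, against 7.66%. For cen the members numbered 3 in CHG, against 6.19%, and 2 in CHH, against 7.33%. By direction, 2 members had higher and 1 a lower CHG region in ddb2-3 (2.49% and 2.75% of all protein-coding genes), and 6 had a higher and 0 a lower CHH region (5.59% and 2.73%). In cen, 3 had a higher and 0 a lower CHG region (5.3% and 1.09%), and 2 had a higher and 0 a lower CHH region (5.57% and 2.3%). Among protein-coding genes in the members' length range, 4.24% had a CHG and 7.36% a CHH region in ddb2-3, and 5.15% and 7.25% in cen. Among those of at least the median member length it was 6.43% and 9.3% in ddb2-3, and 8.5% and 9.18% in cen. All 6 CHH regions of ddb2-3 and all 4 of cen were higher. In CHG, 3 regions of ddb2-3 were read as higher and 1 as lower, and 5 of cen as higher and 0 as lower. Over all protein-coding genes 52.5% of CHG and 31.8% of CHH regions were lower in ddb2-3, and 14.6% and 27.3% in cen. The values that the reading of direction rests on do not decide it in CHG, and with the CHG sign turned the counts would be 1 higher and 3 lower in ddb2-3 and 0 higher and 5 lower in cen. Every CHG direction given here holds under the reading used for CG only. Most lay in the flanks, with 1 region in a gene in ddb2-3 (PARP2) and 1 in cen (KU80).

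BRCA2(IV), which lies near the end of chromosome 4, had the widest of them. The authors' deposited CHG tables give BRCA2(IV) gains at the same windows in both lines. Per the authors' deposited tables, 2101 to 2200 on chromosome 4 was higher by 0.279 in ddb2-3 and 0.272 in cen, and 2601 to 2700 was higher by 0.257 in ddb2-3 and 0.320 in cen. In cen the authors' deposited table adds another CHG region near BRCA2(IV), 1701 to 1900, higher by 0.224. No other gene of the gene table lies at these places. The single CHG region read as a loss was beside FANCM, at chromosome 1, 13089401 to 13089500, lower by 0.158 in ddb2-3, and PARP2 had a CHG window (chromosome 4, 1052201 to 1052300) higher by 0.103 in ddb2-3, per the authors' deposited tables. In cen a CHG gain of 0.188 lay beside ICU2, at chromosome 5, 26787201 to 26787300, per the authors' deposited table.

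The CHH gains of ddb2-3 were spread over 6 genes. Per the authors' deposited table for ddb2-3, that beside MLH3 was 0.108. TIL1 had gains of 0.110 and 0.107 (chromosome 1, 2587801 to 2587900 and 2588301 to 2588400), and the neighbours REV1 and POLH shared 1 of 0.106 (chromosome 5, 18052301 to 18052400), per the authors' deposited table. These gains lie close to the smallest listed value of 0.1. In cen, KU80 had CHH gains of 0.230 in the gene (chromosome 1, 17727101 to 17727200) and 0.110 in its flank (17727801 to 17727900), and MLH3 had 0.169 (chromosome 4, 16864501 to 16864600) and 0.105 in its flank, per the authors' deposited table. The window of MLH3 at chromosome 4, 16865001 to 16865100, was listed in both lines, higher by 0.108 in ddb2-3 and 0.105 in cen, per the authors' deposited tables.

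**Figure D5:**
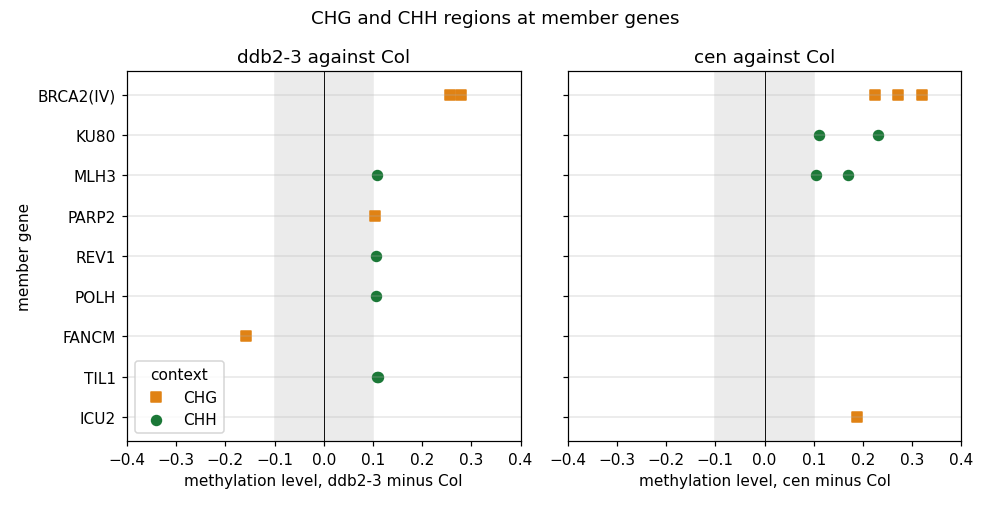
CHG (squares) and CHH (circles) regions at 9 of the 11 member genes that had one, with the methylation level of ddb2-3 minus Col on the left and of cen minus Col on the right. The grey band spans -0.1 to 0.1, where no region is listed. FANCM, lower by 0.158 in ddb2-3, is the only point left of 0, and the gains at BRCA2(IV) reach 0.279 in ddb2-3 and 0.320 in cen.

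Within the members, the share of CG regions near the gene ends was below the share of length there, but its interval held that share in both lines. Of 147 CG regions of ddb2-3 in a member gene, 13 had their midpoint within 500 bp of an end, or 8.84% (5.24 to 14.5), where 14.5% of the length lies. In cen it was 15 of 161, or 9.32% (5.73 to 14.8). Other protein-coding genes had 20.2% there in ddb2-3 and 20.5% in cen, where 39.7% of their length lies. Per kb the members had 0.310 CG regions near the ends and 0.541 further in for ddb2-3, and 0.357 and 0.589 for cen. Other protein-coding genes had 0.189 and 0.490 for ddb2-3 and 0.208 and 0.528 for cen, also fewer at the ends. The gene table gives no strand or exons, so the start of transcription and any exon, intron or UTR were not told apart.

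The flanks added 16 CG regions in ddb2-3 and 22 in cen, of which 14 and 19 lie in another protein-coding gene. At the edge of the 1 kb flank in ddb2-3, the farthest region counted was that of MSH3 (954 bp from the gene, lower by 0.318), and the nearest not counted was one 1002 bp from ATR, higher by 0.339, per the authors' deposited table.

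A further 53 genes of the same pathways had CG regions at 44 (83%) in ddb2-3 and 47 (88.7%) in cen, against 57.7% and 60.1% of all protein-coding genes, at a median length of 3.77 kb. Of protein-coding genes of 3 to 5 kb outside the members, 80.7% had one in ddb2-3 and 82.2% in cen. Both directions were found at 20 genes in ddb2-3 and 26 in cen, against 24.2% and 26% of all protein-coding genes, shares that are not matched for length. The regions numbered 50 higher and 57 lower in ddb2-3, or 53.3% lower (43.9 to 62.4), and 77 higher and 52 lower in cen, or 40.3% lower (32.2 to 48.9). The widest differences of ddb2-3 were a gain of 0.727 and a loss of 0.623 in DPB2, a subunit of polymerase epsilon, and gains of 0.714 in SRS2, a helicase gene, and 0.583 in emb2411, per the authors' deposited table. CHG regions of ddb2-3 lay within 1 kb of 5 of these genes, against 5.04% of all protein-coding genes, lower by 0.407 at SNI1, 0.373 at POLA2, 0.226 at emb1379 and 0.114 at SUV2, and higher by 0.310 at AT1G48360, per the authors' deposited table. CHH regions of ddb2-3 lay at 3, against 7.66%, with gains at AT1G29630 (0.150), LIG6 (0.136) and SUV2 (0.107), per the authors' deposited table.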

How the data were processed

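Per the labels, genomic DNA of seedlings was bisulfite sequenced in 1 library of ddb2-3 and 1 of Col. The submitters' processing notes name Bismark with Bowtie2 (version 2.0) and the build TAIR10, and for read checks and trimming Trim Galore, cutadapt and FastQC. The sources used here do not say how regions were called, nor the test, limit or coverage minimum. The authors deposited 6 lists (3 contexts, 2 comparisons), and the score in column 6 of the deposited lists is a difference in methylation level between -1 and 1, never below 0.1 in absolute size. It was used as deposited. Rows of 1 list and direction are never closer than 200 bp, and on the nuclear chromosomes 104 pairs of opposite CG rows overlap in ddb2-3 and 128 in cen, so a row can span a window that another row gives the opposite way.

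Direction was inferred from rows at the same place with the same value (within 1.5e-06) in both comparisons, on the assumption that such ties arise where both lines are at 0. In CG 806 of 818 such values were positive, in CHG 4 of 7 and in CHH 5 of 5, so a positive value was read as Col above the line. The CHG ties do not decide, and CHG was read like CG. Gene spans came from the RefSeq table of TAIR10.1, whose name differs from TAIR10. In place 78.4% of ddb2-3 CG regions had their midpoint in a protein-coding gene, and 57.7% and 58.4% after moving all by 5000 bp to the left and right. Counts per kb divide by gene length plus 2 kb of flanks. All 42 members enter the counts by role group, and the values of 3 of them are not reported here. For the others, every CG value of ddb2-3 is given for the member with the most in its group, and the 3 widest CG regions per line and direction and the CHG and CHH regions are located. For the rest counts and widest values are given. The members, role groups and lists were chosen with earlier results of these data known, and the 4 loci without a symbol were grouped apart after the gene table was seen. Alternatives were other flanks (none, 500 bp, 2 kb), limits on the difference, midpoint placement, merging, leaving out ATM and other backgrounds. The counting step, tested on simulated data, gave the right number at 500 of 500 genes. Intervals were made with SciPy 1.17.1, tables with pandas 2.3.3 and NumPy 2.4.6, and plots with matplotlib 3.10.9, under Python 3.11.15.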

Additional observations from a re-analysis of the deposited data

Results flagged for a closer look

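Places where the lines moved in opposite directions against Col were flagged, and no difference between the lines was tested. At PARP1, chromosome 2, 13358601 to 13358700, was higher by 0.229 in ddb2-3 and lower by 0.509 in cen in the authors' deposited CG tables. Beside ATM, a CG region at chromosome 3, 17828801 to 17829300, was lower by 0.299 in ddb2-3, while 17829001 to 17829100 within it was higher by 0.446 in cen, in the authors' deposited tables. The ddb2-3 table also lists that inner window as higher, by 0.371, and the cen table lists 17828801 to 17828900 as lower by 0.360, so no difference between the lines is shown beside ATM.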

How the results depend on the processing

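Of 100 alternative values, 85 stayed within 1.5 times the main count or, for the share of lower CG regions, within its interval. All counts of CG regions, of members with one, densities and shares of lower regions did so in both lines, under every flank, limit, placement and merging tried and without ATM. Merging could change nothing, since no rows lay close enough to merge, and leaving out ATM could not change CHG or CHH counts, since it has no such region. These values are among the 85 and say nothing on stability. The limit of 1.5 is also wide. At a difference of 0.2 or more, 130 CG regions of ddb2-3 stayed beside 163, and 129 of cen beside 183. CHG and CHH counts are small and moved. Without flanks, ddb2-3 had 1 CHG and 0 CHH regions (4 and 6 with flanks) and cen 0 CHG and 1 CHH (5 and 4 with flanks). With a flank of 500 bp cen had 1 CHG and 2 CHH regions, and with one of 2 kb it had 10 CHH. At a difference of 0.2 or more, ddb2-3 had 2 CHG and 0 CHH regions and cen 3 CHG and 1 CHH, and at 1.5 times the smallest listed value there were 0 CHH regions in ddb2-3 and 2 in cen. The background share of genes with a CG region moved to 96.7% in ddb2-3 and 97.9% in cen for genes of at least the median member length. No paired analysis was possible because there is 1 library per group and no test. The depth behind each region is unknown, so how firmly a single window is measured cannot be stated.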

Other observations

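Adjoining CG rows of opposite direction occurred at the members as in the whole lists of 30324 rows in ddb2-3 and 32840 in cen. Among the 163 CG rows of ddb2-3 at members, 6 pairs abutted and another 7 were parted by 100 bp, and among the 183 of cen 11 abutted and 6 were parted by 100 bp. All were opposite in direction, as were all such pairs of the whole CG lists (1136 and 1147 in ddb2-3, 1278 and 1257 in cen), since rows of 1 direction so close do not occur. Beside the pairs at ATR, SOG1 and MSH6, cen had ATLIG4 lower by 0.176 next to a window higher by 0.609, and MUS81 higher by 0.585 next to a region lower by 0.316, in the authors' deposited tables.

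At 7 places the members had the same CG value in both lines (within 1.5e-06), all lower, in the authors' deposited tables. Among them were RAD50 (0.789), TIL1 (0.386), AT5G63960 (0.369), MLH3 (0.277), TIL2 (0.168) and MSH3 (0.127). Equal values of this kind are what the reading of direction rests on, so their sign is not a result.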
